A study of Mus musculus with 8 samples.

Results

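The layout of chromatin carrying trimethylated lysine 27 of histone H3 (H3K27me3) was described in a mouse melanocyte line from 2 peak lists, one per ChIP experiment, each called against a shared input library. All peaks of both lists were taken, by position and tag number and with no further filter, which gave 79632 peaks in replicate 1 and 70617 in replicate 2. These 150249 peaks were part of 311378 peaks in the 6 lists of the series. The other lists held acetylation of the same lysine (H3K27ac) and the transcription factor SOX10, 2 libraries each.

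All groups came from melan-Ink4a-Arf-1 cells, an immortalised melanocyte line derived from embryonic mouse skin with the genotype Cdkn2a tm1RDp/tm1RDp, which the labels also call melan-a. The Cdkn2a alteration, the phorbol ester 12-O-tetradecanoylphorbol 13-acetate (TPA, 200 nM) and cholera toxin (200 pM) were present in every library, controls included. The H3K27me3 libraries were made with the Abcam antibody ab6002 and the H3K27ac libraries with ab4729, in 2 independent experiments per antibody, and both marks were called against 1 input library. There was no second cell line, genotype or treatment, so no test between conditions was possible, and the spread given below is that between 2 cultures or experiments of 1 line.

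H3K27me3 is laid down by Polycomb repressive complex 2, whose EZH1 or EZH2 subunit methylates the histone, and whose EED subunit binds the finished mark and promotes its spread to neighbouring nucleosomes. The mark is typical of silent developmental regulator genes and their surroundings, where it forms broad domains rather than point-like sites, and the same lysine cannot carry methylation and acetylation at the same time. In melanocytes, as in other differentiated cells, Polycomb domains are known for covering regulators of other lineages.

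Many of the called peaks were weak, and whether the sequencing depth sufficed for them was not tested. Replicate 1 held 67060647 and replicate 2 held 71987481 tags at distinct positions, out of 79895000 and 92965874 in all, against 42782172 in the input. The peaks covered 78.4 and 69.0 Mb and contained 8.41% of the kept tags of replicate 1 and 7.21% of those of replicate 2. The typical peak lay close to the weakest call: the lowest tag number in a list was 34 and 36, the median peak held 41 and 42 tags, and 44.0% and 46.8% of peaks were within 4 tags of the lowest. Peaks were called with no allowance for a locally raised input, a choice that bears on several regions below.

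Single peaks were short. The median width was 671 bp in replicate 1, with quartiles of 599 and 1036 bp, and 652 bp in replicate 2, with quartiles of 599 and 1020 bp. The widest peaks reached 51165 and 48516 bp. Peaks wider than 5000 bp were 0.825% and 0.848% of the lists and held 6.37% and 6.76% of all peak sequence. Most of the marked sequence therefore lay in short calls, and the broad layout of the mark is described below through their spacing.

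About as many peaks were found in the other replicate as were not. Of the replicate 1 peaks 37270 overlapped a replicate 2 peak by at least 1 bp, or 46.8% (95% Wilson interval 46.5 to 47.1%), and of the replicate 2 peaks 37157 overlapped a replicate 1 peak, or 52.6% (52.2 to 53.0%). The mean was 49.7 ± 4.11% (SD, n = 2), and the intervals cover counting error only. Shared peaks took up more of the marked sequence than of the peak number: they held 58.4% and 65.9% of peak base pairs and 62.6% and 70.5% of peak tags.

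Shared and single-replicate peaks differed in width and tag number. The median shared peak was 822 bp wide in replicate 1 and 806 bp in replicate 2, against 631 and 615 bp for peaks of a single replicate, a ratio of 1.31 ± 0.0056 (SD, n = 2). Median tag numbers were 53 and 54 in shared peaks and 38 and 38 in single-replicate peaks. The median density of tags within a peak differed less, at 63.9 and 67.4 tags per kb in shared peaks and 59.8 and 62.4 in single-replicate peaks. Calls were made against the genome-wide background level, which bounds the density from below. The lower quartiles lay close together, at 58.7 and 62.2 in shared and 57.9 and 60.9 in single-replicate peaks. The smaller difference in density therefore cannot be separated from the calling threshold. Among single-replicate peaks 52.7% and 61.4% were within 4 tags of the lowest in their list, compared with 34.1% and 33.7% of shared peaks. The strongest single-replicate peaks had fold enrichments over the modelled background of 14.4 and 9.40.

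The share found in both replicates climbed with width. It was 35.4% and 37.5% for peaks of up to 600 bp, 66.1% and 77.9% between 1000 and 2000 bp, and 87.9% and 97.9% between 2000 and 5000 bp. Of the peaks above 5000 bp 643 of 657 in replicate 1 and 599 of 599 in replicate 2 were shared. A wide interval meets another more easily than a narrow one under a rule of 1 bp, and the share was not corrected for this.

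**Figure D1:**
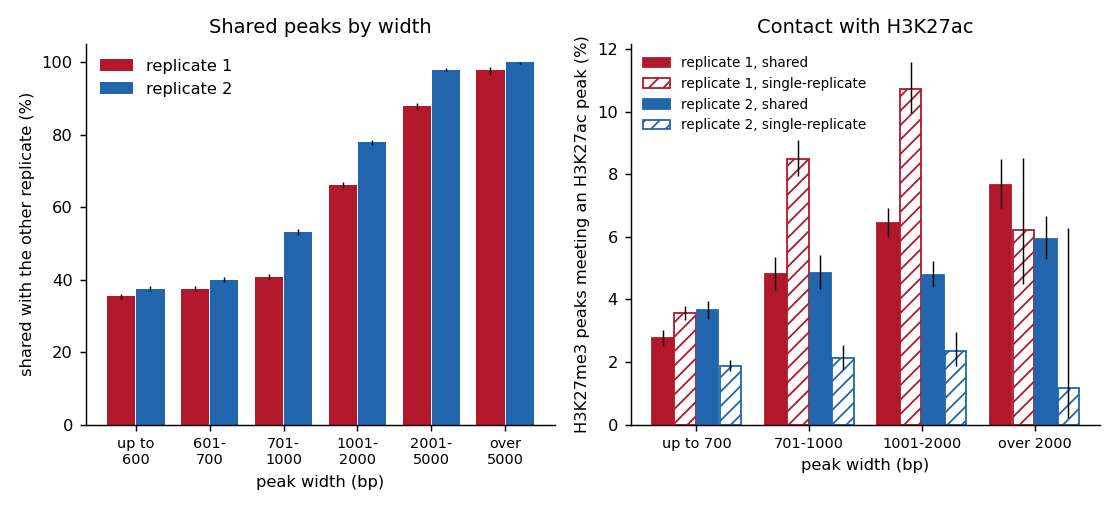
Left, percentage of H3K27me3 peaks of each width class (bp) that overlapped a peak of the other replicate; right, percentage of peaks on numbered chromosomes that met an H3K27ac peak of either acetylation list, for shared (filled) and single-replicate (hatched) peaks. Bars are single libraries and error bars are 95% Wilson intervals. The shared percentage climbs from 35.4% and 37.5% to 97.9% and 100%, and single-replicate peaks of replicate 1 met acetylation most often between 1000 and 2000 bp, at 10.7%.

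Many single-replicate peaks lay near the other replicate's peaks without touching them. The median distance to the nearest peak of the other list was 3.13 kb for replicate 1 and 1.87 kb for replicate 2. Within 5 kb of such a peak were 59.1% and 72.0% of them, and 44.4% and 52.2% belonged to a linked domain of their own list that also held a shared peak. The remote tail was uneven between the replicates. In replicate 1 2783 single-replicate peaks, or 6.57%, lay beyond 100 kb from any replicate 2 peak, whereas in replicate 2 there were 366, or 1.09%.

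The peaks called only in replicate 1 also differed from those called only in replicate 2 in their contact with acetylation. H3K27ac peaks of either acetylation list were met by 5.57% of the single-replicate peaks of replicate 1 and by 1.96% of those of replicate 2, while shared peaks met them at 4.76% and 4.45%. On the numbered chromosomes the contrast was widest between 1000 and 2000 bp, where 587 of 5467 single-replicate peaks of replicate 1 met acetylation, or 10.7% (9.94 to 11.6%), against 70 of 2980 in replicate 2, or 2.35% (1.86 to 2.96%). Shared peaks of that width met acetylation at 6.45% and 4.79%. Over all widths the shared against single-replicate difference was opposite in direction in the 2 libraries. Above 2000 bp the single-replicate peaks were the lower in both, but they were few and their intervals contained the shared values. In replicate 1 35 of 564 met acetylation, or 6.21% (4.50 to 8.51%), against 7.67% of shared peaks. In replicate 2 it was 1 of 86, or 1.16% (0.206 to 6.30%), against 5.94%. Among all peaks, 5.19% in replicate 1 and 3.27% in replicate 2 met an acetylation peak.

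Peaks were strongly clustered along the chromosomes. The median gap to the next peak was 2.44 kb in replicate 1 and 2.12 kb in replicate 2 (2277 ± 223 bp, SD, n = 2), whereas the mean gap was 31.3 and 34.4 kb, 12.8 and 16.2 times the median. Gaps of at most 1 kb were 32.8% and 34.8% of all gaps, and gaps of at most 5 kb were 63.0% and 65.3%. At the other end, 4188 and 3764 gaps of at least 100 kb made up 5.26% and 5.33% of the gaps and 73.6% and 78.5% of the sequence between peaks.

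**Figure D2:**
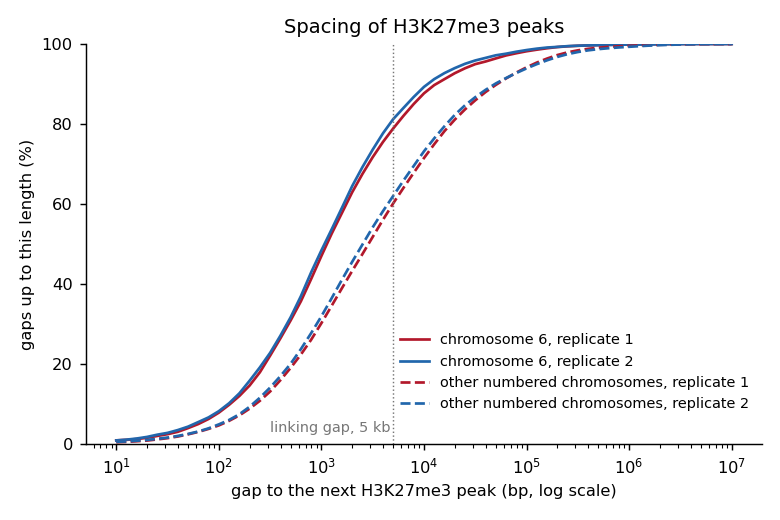
Cumulative percentage of gaps between neighbouring H3K27me3 peaks (vertical axis) up to a given length in bp (horizontal axis, log scale), for chromosome 6 (solid) and the other numbered chromosomes (dashed) of each replicate; the dotted line marks the 5 kb gap used for linking. At 5 kb the curves stand at 78.8% and 81.2% on chromosome 6 and at 60.1% and 62.0% elsewhere.

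Long stretches without any peak were largely the same in both lists. Gaps of at least 1 Mb on the numbered chromosomes numbered 335 in replicate 1 and 426 in replicate 2 and spanned 749 and 948 Mb. Of this sequence 709.6 Mb was common to both, which was 94.7% of the replicate 1 stretches and 74.8% of the replicate 2 stretches. The longest gap of each list lay in the same part of chromosome 14. In replicate 1 it ran from chr14:86943766-101554697 (mm9, 14.6 Mb) and contained 7 peaks of replicate 2. In replicate 2 it ran from chr14:87670025-96916708 (9.25 Mb) and contained no peak of replicate 1. The 2 acetylation lists had 7 and 5 peaks in the longer stretch and 3 and 2 in the shorter, so it was poor in both marks.

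Counted in bins of 1 Mb on the numbered chromosomes other than 6, peaks were concentrated in few places. Of 2330 bins 464 in replicate 1 and 552 in replicate 2 held no peak, and 421 were empty in both. Bins were laid from the start of each chromosome. Those ahead of the first position in any list therefore count as empty, here and in the correlation below. The median bin held 16 and 12 peaks and the fullest 243 and 218, and the fullest 10% of the bins held 38.2% and 39.8% of the peaks. Bin counts of the replicates followed each other with a Spearman rho of 0.961 over these 2330 bins, given as a description because both lists share the input and neighbouring bins are not independent.

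Linking peaks at most 5 kb apart gave 29492 domains in replicate 1 and 24507 in replicate 2. Most domains by number were small. Solitary peaks made up 15401 and 11905 of them, or 52.2% and 48.6%, but held 15.6% and 12.4% of the marked sequence. Domains of at least 10 kb, called long below, numbered 3931 and 3644 (3787.5 ± 203, SD, n = 2), which was 13.3% and 14.9% of domains, and held 54.2% and 57.8% of the marked sequence and 57.2% and 61.5% of peak tags. The number depended on the settings: the mean was 743.5 with linking at 1 kb, 2399.5 at 3 kb, 5459 at 10 kb and 5610 at 20 kb. It was 1541.5 with only peaks of a score (10 times the −log10 of the p-value) of at least 100. Among the long domains linked at 5 kb were 191 and 156 domains of 50 to 100 kb and 40 and 45 of at least 100 kb. The longest spanned 335 kb with 102 peaks in replicate 1 and 327 kb with 112 peaks in replicate 2, both on chromosome 6.

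From 10 kb upward, longer domains were filled more completely, and they were built of wider and denser peaks than solitary ones. The median share of a domain's span lying inside peaks was 51.5% and 51.2% for domains of several peaks under 10 kb, 41.9% and 43.0% at 10 to 50 kb, 55.8% and 57.1% at 50 to 100 kb, and 67.5% and 68.6% at 100 kb or more. The median peak was 636 and 613 bp wide when solitary and 1104 and 1124.5 bp wide in the domains of at least 100 kb. The corresponding tag densities were 59.8 and 62.4 tags per kb in solitary peaks and 69.4 and 73.7 in the longest class. The share filled was thus lowest at 10 to 50 kb in both replicates.

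Long domains were also the ones found again. A solitary peak was met by any peak of the other replicate in 19.1% and 26.1% of cases, a domain of several peaks under 10 kb in 62.9% and 73.8%, and a domain of 10 to 50 kb in 96.6% and 98.5%. All 231 domains of at least 50 kb in replicate 1 and all 201 in replicate 2 were met. Peak by peak, the shared portion went from 19.1% and 26.1% for solitary peaks to 85.0% and 85.6% inside domains of at least 100 kb. A domain of greater length offers more sequence to overlap, so the percentages of domains met are not a like-for-like comparison between classes. The shares counted peak by peak are not like for like either. Peaks of the longest domains were wider and filled more of their surroundings, which eases an overlap of 1 bp, and this was not corrected for. Of the long domains 63.7% and 69.4% met a domain that was also at least 10 kb in the other list.

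**Figure D3:**
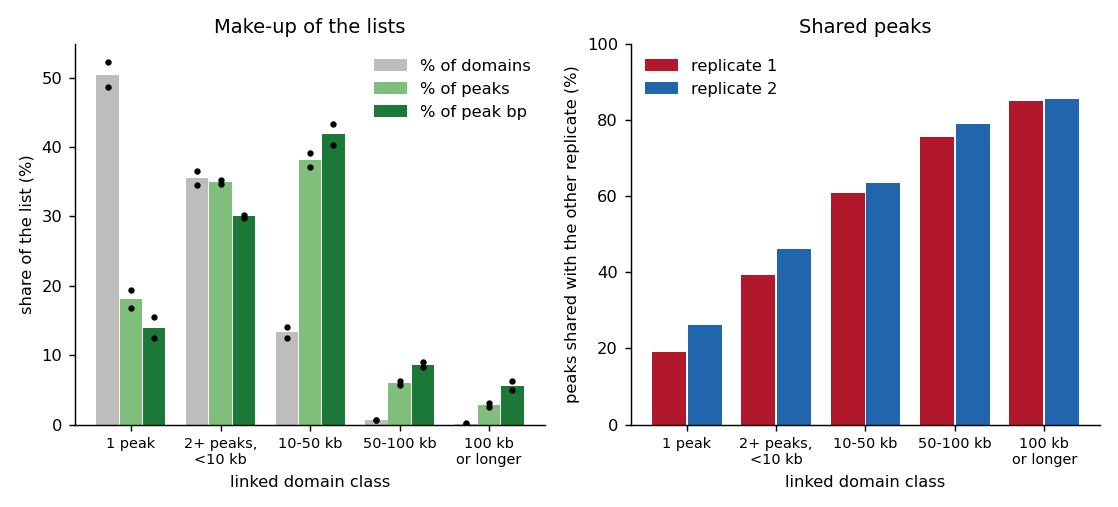
Left, percentage of domains, of peaks and of peak base pairs in each class of linked domain (bars are means of the 2 replicates, black points the single libraries); right, percentage of peaks in each class that overlapped a peak of the other replicate. Solitary peaks are 52.2% and 48.6% of domains but 15.6% and 12.4% of peak base pairs, and shared peaks reach 85.0% and 85.6% in domains of at least 100 kb.

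Where a long domain matched 1 long domain of the other list and no more, the borders mostly lay within a few kb of each other. For these 2021 pairs, out of 3931 and 3644 long domains, the median difference in position over their 4042 ends was 2.15 kb. It was at most 1 kb for 32.9% of ends and at most 5 kb for 70.7%. Another 689 overlaps joined a long domain to several of the other list, and the remaining long domains met no long domain there. In domains of at least 5 peaks, which numbered 3995 and 3885, 50.8% and 53.0% of the outermost peaks were shared, against 68.4% and 70.5% of the interior ones. The outermost peaks were also narrower, with medians of 664 and 652 bp against 756 and 752 bp. They met an acetylation peak in 6.15% and 4.08% of cases and interior peaks in 3.61% and 2.94%.

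Regions holding overlapping peaks of both replicates were linked in the same way to list the longest called domains. The 30517 regions covered 58.0 Mb, more than the 45.8 and 45.5 Mb of shared peaks in replicates 1 and 2. They therefore include sequence called in 1 replicate only. Linked, they formed 13929 domains, of which 2079 were at least 10 kb, 122 at least 50 kb and 25 at least 100 kb. Chromosome 6 held 518, 71 and 19 of these, and the other numbered chromosomes together held 1544, 50 and 6. Of the 10 longest, which spanned 141.4 to 202.8 kb, 9 lay on chromosome 6 and the other on chromosome 15. Peaks were called against a genome-wide background although the input was higher on chromosome 6, as described below. Domain lengths were not rescored for this, so the ranking is that of the calls as deposited.

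Peaks found in a single replicate were not linked here, and the domains of 335 and 327 kb in the single lists do not reappear at that length. The longest domain linked from regions with peaks of both replicates was chr6:84359855-84562695 (202.8 kb). There peaks covered 84.3 ± 1.85% of the span (SD, n = 2) with 93.1 ± 1.62 tags per kb of peak. It was followed by chr6:83524183-83712632 (188.5 kb), covered to 76.5 ± 1.76%. The third was the one on chromosome 15, chr15:102725552-102908070 (182.5 kb), which was more completely filled, at 89.8 ± 0.391%, and had 108.7 ± 8.78 tags per kb. Acetylation was nearly missing from it, with 1 and 0 peaks. The domain chr6:126213012-126360933 (147.9 kb), covered to 86.0 ± 2.5%, contained no acetylation peak in either list.

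The domain chr6:28882556-29043836 (161.3 kb) stood apart among the 10 by its acetylation. It was covered by H3K27me3 to 74.4 ± 0.571% and contained 22 and 28 H3K27ac peaks, whereas the other 9 contained 0 to 5 in the first acetylation list and 0 to 9 in the second. Whether both marks were on the same chromosomes or in different cells of the culture cannot be told apart in bulk ChIP, nor can fewer marked cells and less mark per cell.

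A pair of domains on chromosome 6 lay close together, at chr6:51964164-52108025 (143.9 kb) and chr6:52155956-52297946 (142.0 kb). They were covered to 88.8 ± 0.984% and 85.0 ± 3.85% and, at 107.4 ± 6.15 and 124.2 ± 7.13 tags per kb, were among the densest of the 10. The 47.9 kb between them held a different mixture. H3K27me3 peaks covered 18.8% and 30.4% of that stretch, with 8 and 13 peaks, and H3K27ac peaks covered 29.7% and 29.4% of it, with 28 and 30 peaks. In the 2 flanking domains there were 4 and 6, and 5 and 9, acetylation peaks over spans that were longer. No SOX10 peak lay in the intervening stretch.

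Away from chromosome 6 the longest domains after that of chromosome 15 were chr2:74485197-74610315 (125.1 kb, covered to 84.1 ± 2.25% with 99.3 ± 8.36 tags per kb), chr18:84859157-84971804 (112.6 kb, 72.7 ± 4.28%), chr2:38125232-38237685 (112.5 kb, 70.7%), chr1:183888535-183991461 (102.9 kb, 68.6 ± 1.76%) and chr2:127292383-127392763 (100.4 kb, 69.4 ± 5.01%). The domain on chromosome 18 contained 1 acetylation peak in each list and the other 4 contained none. The shorter ones chr4:153804293-153900433 (96.1 kb), chr9:61106022-61197687 (91.7 kb) and chr17:25560778-25642742 (82.0 kb) were covered to 69.8 ± 1.70%, 66.6 ± 0.666% and 51.3 ± 7.38%. They contained 0 and 2, 2 and 1, and 0 and 0 acetylation peaks. The Hoxa, Hoxc and Hoxd clusters of developmental transcription factor genes, textbook targets of Polycomb silencing, lie on chromosomes 6, 15 and 2. No gene models of the mm9 build were used here, so no domain was assigned to a gene.

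The last of the 10 off chromosome 6, chr11:3021760-3100498 (78.7 kb), was unlike the others. It was made of 3 and 4 peaks with 472.9 ± 19.8 tags per kb and a fold enrichment of up to 42.8 ± 0.615, and 1 peak alone had 25189 tags in replicate 1 and 25796 in replicate 2. The densest domain of all by tags per kb lay on the mitochondrial chromosome, positions 1 to 10018, with 576.5 ± 100.2 tags per kb, although mitochondrial DNA carries no histones. A domain on unplaced sequence had 327.8 tags per kb. A domain close to the end of the X chromosome, chrX:166407273-166447050, had 296.8 tags per kb and chr9:3015096-3038766 had 262.8. Peaks with a fold enrichment of at least 15 numbered 117 and 72, all of them shared, and 40 and 20 of these were on X, the mitochondrial chromosome or unplaced sequence. They were 0.147% and 0.102% of peaks and held 1.76% and 1.59% of peak tags. Input background was high at the places where it could be recovered. Under the 6 and 4 H3K27ac peaks of the chromosome 11 domain its median was 16.2 and 14.1 times that of the other chromosomes, and under the 3 and 3 of the X domain it was 10.0 and 8.16 times. The chromosome 9 domain held no H3K27ac peak, and under its 4 and 2 SOX10 peaks the SOX10 input was 15.2 and 21.2 times as high. The mitochondrial domain held neither, so its input was not recovered.

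Chromosome 6 carried called peaks at a density that no other chromosome reached. It had 12091 and 12188 peaks, or 82.7 and 83.3 per Mb. The medians over the other 18 numbered chromosomes were 27.1 and 23.2 per Mb. The range among those was 19.8 to 46.7 per Mb in replicate 1 and 17.1 to 38.8 in replicate 2. The ratio to the median was 3.05 and 3.59 (3.32 ± 0.385, SD, n = 2). With 6.08% of the numbered span, chromosome 6 held 15.2% and 17.3% of peaks and 18.8% and 21.8% of peak base pairs. Peaks covered 10.1% and 10.3% of it, compared with at most 4.66% and 3.82% of another numbered chromosome.

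**Figure D4:**
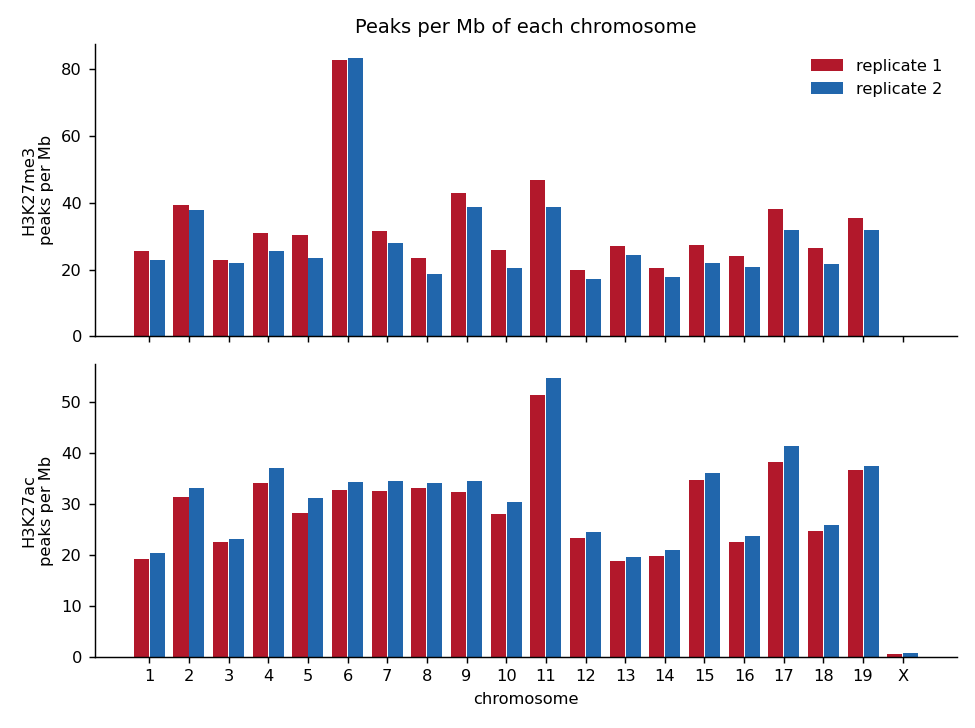
Peaks per Mb on each numbered chromosome and X for H3K27me3 (top) and H3K27ac (bottom), with one bar per library. Chromosome 6 stands at 82.7 and 83.3 for H3K27me3 and at 32.7 and 34.3 for H3K27ac, and the X bars for H3K27me3 (0.230 and 0.143) are too low to be seen.

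The layout of called peaks on chromosome 6 differed from the rest in both replicates. Its median gap was 1.12 and 1.07 kb against 2.87 and 2.53 kb on the other numbered chromosomes together. Long domains held 79.2% and 82.0% of its marked sequence against a median of 47.9% and 49.8%. It supplied 6.65% and 6.55% of the solitary peaks of the genome but 27 of 40 and 35 of 45 domains of at least 100 kb. Of its peaks 66.6% and 65.2% were shared, above the highest values of another numbered chromosome, 49.4% and 59.5%. An overlap of 1 bp arises more easily where peaks cover more of the sequence, as on chromosome 6, and the share was not corrected for this. Median peak widths on chromosome 6, 731 and 730 bp against 664.5 and 644.5 bp, were above the highest of another numbered chromosome (680 and 663 bp). Median fold enrichments differed less, at 5.03 and 5.25 against 4.81 and 5.03. Without chromosome 6 the ratio of shared to single-replicate median widths was 1.26 and 1.25, and on chromosome 6 it was 1.5 and 1.65.

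The signal of the input library was also higher on chromosome 6. Input background, recovered from the tags, widths and scores of H3K27ac peaks, was 1.59 and 1.53 times the genome-wide level there, and its median over the other 18 numbered chromosomes was 1.23 and 1.16. The ratio was 1.29 and 1.32, and it was 1.37 and 1.37 with the separate input of the SOX10 lists. Both inputs were seen only at called peaks. Of the SOX10 peaks 7.85% and 5.79% on chromosome 6 stood at the lowest background that the caller allows. On the other numbered chromosomes 21.9% and 20.1% did, which can raise the median there. Of the H3K27ac peaks at most 0.915% did in either group. H3K27me3 peaks were called against the genome-wide level, which their own values gave to within 1% in 96.8% and 95.2% of peaks. H3K27ac, called with local background, had 32.7 and 34.3 peaks per Mb on chromosome 6, a ratio of 1.10 and 1.07 to the median of the others, and a median fold enrichment of 6.88 and 6.60, below the lowest of another numbered chromosome (8.0 and 7.71).

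The background of chromosome 6 was then raised by the ratios from the H3K27ac lists, 1.29 and 1.32. Of its peaks 6734 in replicate 1 (55.7%) and 6345 in replicate 2 (52.1%) still reached the lowest score in their list. They gave 46.0 and 43.4 peaks per Mb, a ratio of 1.70 and 1.87 (1.78 ± 0.122, SD, n = 2). In replicate 1 this was below the densest other chromosome (46.7) and in replicate 2 above it (38.8). Only the peak count was rescored, and the gaps, domains and shared share of chromosome 6 were not. The number of copies of chromosome 6 in these cells was not measured, and its part in the count was not tested.

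Chromosome 6 was not evenly marked. In 15 windows of 10 Mb, the density went from 16.7 and 16 peaks per Mb in the window from 60 to 70 Mb to 138.4 and 133.5 in the highest window, with medians of 89.4 and 86.9. It was above the median of the other chromosomes in 13 and 14 of the 15. The input ratio hardly moved along the chromosome, between 1.20 and 1.32 under the first acetylation list and between 1.22 and 1.35 under the second. Few windows elsewhere were as rich as the typical window of chromosome 6. Of 207 full windows on the other numbered chromosomes 8 in replicate 1 and 3 in replicate 2 exceeded the median full window of chromosome 6 (69.5 and 71.4 per Mb), and the richest reached 107.4 and 98.3. In each replicate 6 of the 13 full windows of chromosome 6 were above that.

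**Figure D5:**
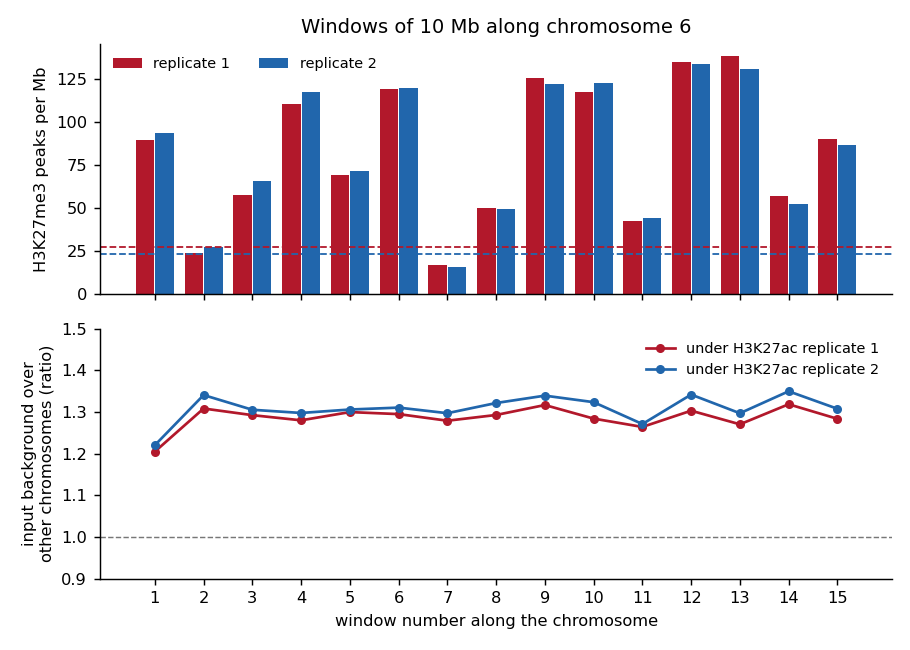
Top, H3K27me3 peaks per Mb in 15 consecutive 10 Mb windows of chromosome 6 for each replicate (bars), with the median of the other numbered chromosomes as dashed lines (27.1 and 23.2); bottom, input background recovered under the H3K27ac peaks of the same windows as a ratio to the other chromosomes. Peak density varies between 16 and 138.4 per Mb while the input ratio stays between 1.20 and 1.35.

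Among the other chromosomes the replicates placed the mark in nearly the same order. Peaks per Mb over the 18 chromosomes gave a Spearman rho of 0.948 and a Pearson r of 0.972 between replicates. Chromosomes with more H3K27me3 peaks tended to hold more H3K27ac peaks as well, with rho of 0.682 and 0.614 and r of 0.777 and 0.672. These are descriptions over chromosomes, which share the input library and differ in gene content and base composition.

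The X chromosome was nearly empty of called H3K27me3. It held 37 peaks in replicate 1 and 23 in replicate 2, or 0.230 and 0.143 per Mb, of which 12 and 14 were shared. Peaks ending beyond 166 Mb, in the dense region near the end of the chromosome, numbered 6 and 8 and held 82.4% and 88.1% of the tags in X peaks. The other lists were sparse there too. H3K27ac had 97 and 125 peaks on X (0.604 and 0.778 per Mb) and SOX10 had 0.467 and 0.753 per Mb, where the numbered chromosomes other than 6 had a median of 2.56 and 3.91. Input background recovered under the H3K27ac peaks of X, from the input that H3K27me3 was called against, was 0.957 and 0.959 times that of the other chromosomes. Under the SOX10 peaks of X, from the separate SOX10 input, it was 0.702 and 0.691 times, with 58.7% and 53.7% of these peaks at the lowest background that the caller allows. Of the H3K27ac peaks of X 0% and 1.6% stood at the lowest background allowed in their lists. Both inputs were seen only at places of X where a peak was called, so the values do not measure the coverage of X as a whole. No list of H3K27me3 had a peak on Y. The part of sequence coverage on X in these low counts was not tested.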

How the data were processed

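H3K27me3 ChIP-seq peak lists of 2 experiments were analysed, beside 2 H3K27ac and 2 SOX10 lists. Per the file headers, the authors called peaks with MACS 1.4.2 on mm9, each library separately, at a p cutoff of 1e-05, keeping 1 tag per position. For H3K27me3 the local background was switched off; for H3K27ac it used windows of 1000 and 10000 bp. For read alignment, the tool was not given in the sources used here. The deposited lists give tag counts per peak, fold enrichment as a ratio to the modelled background, a score that is the −log10 of the MACS p-value times 10, and a false discovery rate in percent, which was not used.

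Positions are those of the deposited lists. Shared peaks overlapped by at least 1 bp. Peaks with gaps of at most 5 kb were linked into domains, and long domains spanned at least 10 kb. Densities were per Mb between the first and last position covered by any list. The background at a peak was recovered from its tags, width and score, as the Poisson mean that gives that score. Named domains were the 10 longest holding peaks of both replicates, the 10 longest of these off chromosome 6, the longest gaps and the densest domain; the next densest domains and the stretch between 2 neighbouring domains were chosen after their values were seen. With 2 libraries, values are given as mean ± SD without a test. The members and lists were chosen with earlier results of these data known. Overlap, linking and background recovery were tested on simulated data. Python 3.11.15, pandas 2.3.3, numpy 2.4.6 and scipy 1.17.1 were used. Gene lists and sequences were not used here, since the reference tables were of another build.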

Additional observations from a re-analysis of the deposited data

How the results depend on the processing

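Of 46 alternative values, 24 stayed within the spread between replicates or within 1.5 times the count, and 22 moved. Except for the count of long domains, a value with 1 replicate left out always falls within the spread of 2 replicates. For those values staying was fixed in advance and shows no stability. No chromosome 6, width or tag density ratio fell below 1, and the other results had no direction that could change. The share of shared peaks was 40.3% with an overlap of 50% of the shorter peak and 65.3% when peaks within 1 kb counted. Long domains numbered 1541.5 with peaks of a score of at least 100, 743.5 with linking at 1 kb and 2399.5 at 3 kb. With linking at 10 kb they numbered 5459 and at 20 kb 5610, within 1.5 times the count but beyond the spread between replicates. The median gap was 5186 bp with that score, 2956.5 bp with the strongest 60000 peaks of each list and 2695 bp without chromosome 6. The chromosome 6 ratio was 4.45 with that score, 4.43 by covered base pairs, 4.75 by tags, 4.94 for shared and 2.02 for single-replicate peaks, and 1.78 with raised background, chosen after seeing the data. Under the 50% overlap, the 1 kb distance, the stricter score and without chromosome 6, the width ratio was 1.5, 1.15, 1.4 and 1.26 and the tag density ratio 1.11, 1.04, 1.08 and 1.06. The cause of these shifts was not tested. Leaving out each replicate gave 3644 to 3931 long domains, median gaps of 2119.5 to 2435 bp, chromosome 6 ratios of 3.05 to 3.59, width ratios of 1.30 to 1.31 and density ratios of 1.07 to 1.08; the shared share needs both. No paired analysis was possible because no result came from a test between groups. The planned count of genes in lists was not run. Peaks near the lowest tag number limit what the depth can show.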
